A study of Mus musculus with 32 samples.

Results

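Skeletal muscle sarcomere and metabolism genes were followed in 2 airway tissues, lung and trachea, of mice with and without Car6. The 36 genes listed encode the fast fibre's myosin and actin filaments, Z discs, calcium release and uptake, fuel enzymes and myogenic transcription factors, and the ectoenzyme gene Art5. A gene was a member when a probe of the bead array carried its symbol, which held for 33 of the 36, with 48 of the 25697 probes and 33 of the 16593 gene symbols measured. Myh2 (a fast myosin heavy chain), Neb (nebulin) and Cacna1s (the voltage sensor of the calcium channel) have no probe in the array's annotation and were left out.

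There were 4 groups: 6 Car6-/- lungs, 8 wild-type lungs, 6 Car6-/- tracheas and 8 wild-type tracheas. All were C57BL/6 males aged 2 months, and the only genetic difference named in the labels is the Car6 knockout. Car6 encodes the secreted carbonic anhydrase VI. Samples are called by the number that the labels give within a genotype and tissue, and nothing in the labels ties the lung of a number to the trachea of that number as 1 animal. P-values therefore measure the spread between these samples. Levels are normalized log2 intensities, differences are log2 differences, and a probe counted as detected in a sample at a detection p under 0.01.

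Skeletal muscle contracts when myosin thick filaments pull on actin thin filaments that are anchored at Z discs. A nerve signal releases calcium from the sarcoplasmic reticulum through the ryanodine receptor, troponin on the thin filament binds it, and a calcium pump returns it. Fast fibres use their own isoforms of these proteins, buffer calcium with parvalbumin and take much of their fuel from glycogen. Lung parenchyma has no skeletal muscle, whereas the airway wall holds smooth muscle and the trachea lies beside the muscles of the neck and the oesophagus, and the walls of the pulmonary veins carry cardiac muscle in mice.

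Promoter sequence is shown for 5 members whose levels are described below, because Myh1, Myh4 and Myh8 are neighbours in 1 cluster of myosin heavy chain genes and Pvalb and Casq1 belong to the calcium system of the same fibres. The sequences are the 250 bases before the annotated start, 5′ to 3′ on the gene's strand, from RefSeq on GRCm38.p6. They lie at chr11:67199852-67200101 (plus strand) for Myh1, chr11:67237562-67237811 (plus strand) for Myh4, chr11:67276874-67277123 (plus strand) for Myh8, chr15:78206401-78206650 (minus strand) for Pvalb and chr1:172219896-172220145 (minus strand) for Casq1. Capitals mark a match to the MEF2 motif in the first 4 and to CAGCTG in Casq1.
Myh1: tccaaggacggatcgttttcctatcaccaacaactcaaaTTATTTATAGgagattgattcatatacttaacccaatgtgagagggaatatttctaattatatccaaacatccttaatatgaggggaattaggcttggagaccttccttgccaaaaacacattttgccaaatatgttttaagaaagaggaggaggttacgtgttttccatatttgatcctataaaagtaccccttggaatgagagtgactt
Myh4: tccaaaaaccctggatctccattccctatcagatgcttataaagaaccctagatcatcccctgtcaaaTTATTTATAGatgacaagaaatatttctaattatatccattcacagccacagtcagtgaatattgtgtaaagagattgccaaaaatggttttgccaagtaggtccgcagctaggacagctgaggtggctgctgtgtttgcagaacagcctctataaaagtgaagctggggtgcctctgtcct
Myh8: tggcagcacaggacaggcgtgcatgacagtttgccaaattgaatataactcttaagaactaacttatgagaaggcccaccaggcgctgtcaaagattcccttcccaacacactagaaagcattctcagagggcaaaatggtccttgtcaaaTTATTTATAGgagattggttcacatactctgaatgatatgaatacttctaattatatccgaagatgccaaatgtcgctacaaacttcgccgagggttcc
Pvalb: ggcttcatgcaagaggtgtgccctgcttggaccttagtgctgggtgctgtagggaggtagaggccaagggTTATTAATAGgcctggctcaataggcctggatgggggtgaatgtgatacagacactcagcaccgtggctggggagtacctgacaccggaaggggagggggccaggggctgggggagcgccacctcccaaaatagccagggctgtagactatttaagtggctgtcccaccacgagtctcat
Casq1: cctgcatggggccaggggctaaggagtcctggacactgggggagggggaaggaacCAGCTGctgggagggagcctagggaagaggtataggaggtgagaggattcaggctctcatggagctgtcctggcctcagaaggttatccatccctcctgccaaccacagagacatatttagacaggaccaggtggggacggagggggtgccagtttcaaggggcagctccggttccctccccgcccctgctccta

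The longest run common to the Myh1, Myh4 and Myh8 windows was tcaaaTTATTTATAG, 15 bases that start at -216, -187 and -104 from the start and hold the MEF2 match. Of 32851 windows of the same length in the RefSeq table, 3 held this run, those of Myh1, Myh4 and Myh8. RefSeq windows were found for 25 of the 36 listed genes, 29 windows in all, because Pfkm and Pvalb have several. The MEF2 motif was present in 6 of the 29 (20.7%) and in 2.92% of all windows, and those 6 belong to Myh1, Myh4, Myh8, Pgam2, Pvalb and Ttn. CAGCTG, an E-box bound by myogenic factors, was present in 11 of 29 (37.9%) and in 13% of all windows. The general E-box CANNTG, which includes CAGCTG, was present in 23 (79.3%) against 66.2%. The CArG box was present in 2 (6.9%) against 1.47%, MCAT (CATTCC) in 9 (31%) against 12.6% and TATAAA in 5 (17.2%) against 12.4%, each read on both strands. The reverse of TATAAA lies inside the run that the myosin windows share. Such a match describes letters only and was not set against any measured binding.

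Arrays detected 11735 to 13139 probes. Alveolar type 2 cell markers had a mean level of 12.23 to 12.51 in all 14 lungs, and cartilage markers a mean of 6.64 to 8.80 in all 14 tracheas against 4.27 to 4.48 in lung. In trachea, 2 samples stood apart. Car6-/- trachea 1 and 2 had alveolar type 2 means of 10.67 and 11.18, while the other 12 tracheas lay between 7.58 and 8.53. The surfactant gene Sftpb stood at 9.91 and 10.71 in these 2 samples and was detected in 0 wild-type tracheas. Car6-/- trachea 1 also carried heart genes, with the atrial peptide gene Nppa at 13.78, a gene that 0 wild-type tracheas detected. In lung, Car6-/- lung 5 and wild-type lung 6 stood apart in fast fibre genes. Wild-type lung 6 also had a thyroid marker mean of 6.25, against 4.93 to 5.49 in the other lungs. Its stratified epithelium mean was 5.70, against 4.47 to 4.94.

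**Figure D1:**
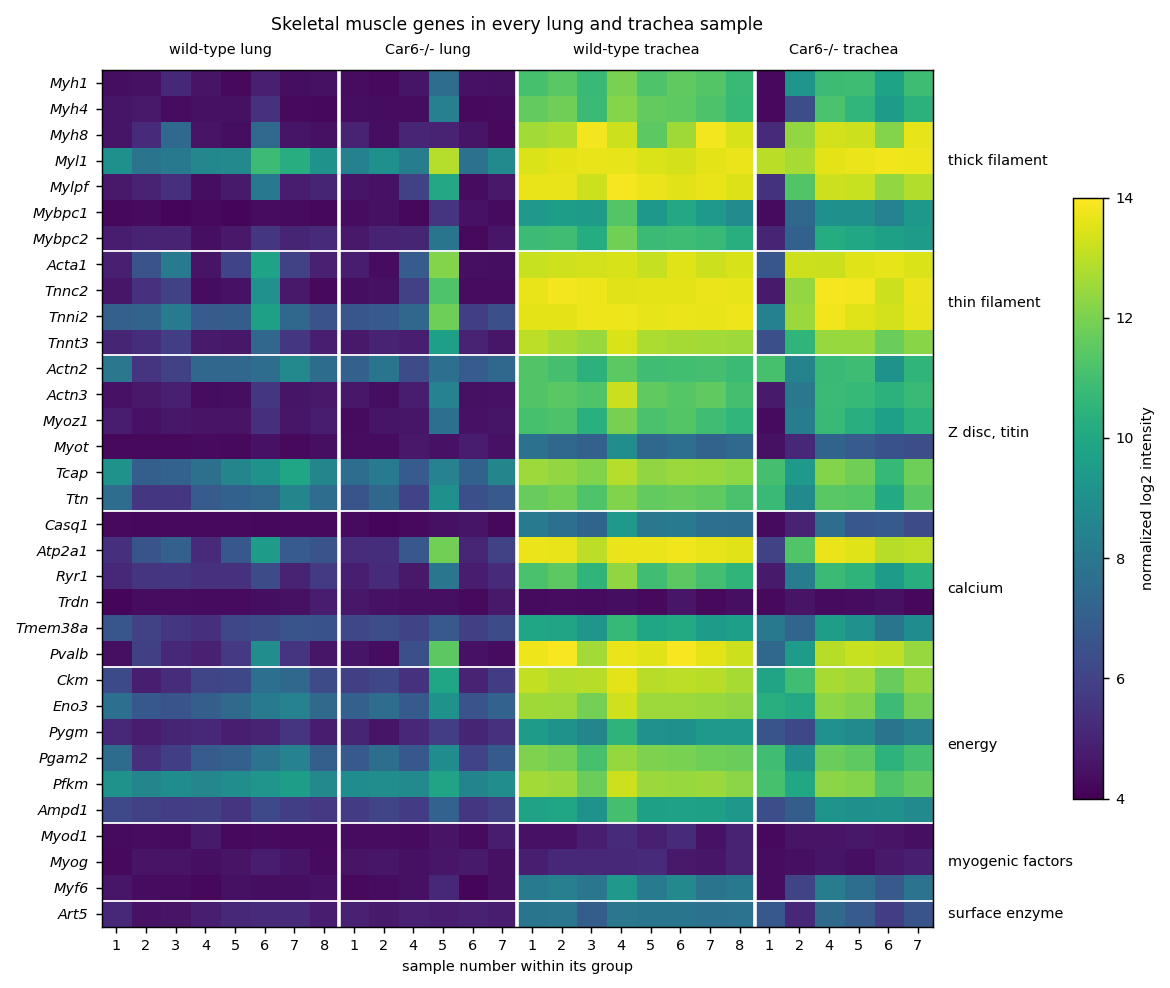
Normalized log2 intensity (colour) of the brightest probe of the 33 muscle genes with a probe (rows, grouped by role) in all 28 samples (columns, numbered within each group). Trachea is bright for 30 genes and lung dark for most of them, Car6-/- trachea 1 is dark for 11 genes that it did not detect, and Car6-/- lung 5 is brighter than the other lungs.

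Wild-type trachea and lung were compared to place the genes in the normal airway. The 30 members that passed the detection filter (detected in at least 6 of the samples compared) were all higher in trachea, by a median of 5.42. For each of the 30, all 8 tracheas lay above all 8 lungs. Mylpf, the fast regulatory light chain gene, stood at 13.60 ± 0.18 in trachea and 5.25 ± 1.16 in lung (SD, n = 8 each), a difference of 8.35 ± 0.38 (SE). It was detected in 3 of 8 lungs, so that this lung mean is mostly background, and the trachea signal lay near the top of the scale. Art5, which encodes an ADP-ribosyltransferase, had a difference of 2.83 ± 0.15 and was detected in 4 of 8 lungs. Limma called all 30 higher, where 29.8% of the 10019 genes tested were called higher and 15.5% had every trachea above every lung. Of the 30, 17 passed the filter through trachea alone and had to differ, so these counts are a description. With no filter the 33 genes had a median difference of 5.08, beside -0.01 over all genes.

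Some members gave signal in every lung and others in none. Titin (Ttn), the Z disc genes Actn2 and Tcap, the fast alkali light chain gene Myl1 and the glycolytic genes Eno3, Pgam2 and Pfkm were detected in all 14 lungs, as were Tnni2, Atp2a1, Tmem38a and Ampd1. Casq1, the calcium store protein calsequestrin, and Myot, the Z disc protein myotilin, were detected in 0 of 14 lungs and 8 of 8 wild-type tracheas. Against the lowest signal of a detected probe in lung, Casq1 was at least 7.74-fold higher in wild-type trachea and Myot at least 5.95-fold higher. By the same bound Myf6, the myogenic factor of mature fibres, was at least 9.79-fold higher and Mybpc1, a myosin binding protein, at least 23.3-fold higher. These 4 passed the filter through trachea alone, so that no p is given for them. A second Myot probe was detected in 0 samples of any group, with a wild-type tissue difference of 0.05. A dim Mybpc1 probe, detected in 4 of 8 wild-type tracheas and 0 lungs, had a difference of 0.74.

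Myod1 and Myog, the factors that start and drive muscle differentiation, did not pass the filter. Myod1 was detected in 3 of 8 wild-type and 0 of 6 Car6-/- tracheas, with wild-type levels of 4.48, 4.86 and 5.25 (lowest, median, highest). A Myog probe was detected in 4 of 8 wild-type and 0 of 6 Car6-/- tracheas, and the other in 0 wild-type and 1 Car6-/- trachea. Trdn, which anchors the calcium store to the release channel, was detected in 0 of 28 samples by its single probe.

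Car6-/- and wild-type trachea were compared to ask how these genes differ by genotype in the upper airway. All 30 members tested had lower means in Car6-/- trachea, with a median difference of -1.52, while the median of the 9736 genes tested was 0.04 and 43.9% of them were lower. None of the 30 was called by limma, nor was any other gene (0 of 9736, 0%), and the adjusted p of the members ranged from 0.151 to 0.715. At an unadjusted p under 0.05 lay 24 of the 30 and 1674 of the 9736 genes (17.2%). All 30 were detected in all 8 wild-type tracheas, 19 in all 6 Car6-/- tracheas and 11 in 5 of 6, the exception being trachea 1. In tissue RNA, fewer muscle cells and less RNA per muscle cell cannot be told apart. Markers of heart, thyroid and brown fat also differed between these tracheas, as given below, and their part in the muscle differences was not tested.

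The spread among the Car6-/- tracheas was wide. The SD of the 30 members had a median of 1.67 in the 6 Car6-/- and 0.42 in the 8 wild-type tracheas and was larger in Car6-/- for all 30. Among Car6-/- tracheas 4, 5, 6 and 7 alone the median SD was 0.46, larger than in wild type for 18 of the 30. The width thus came mostly from tracheas 1 and 2. The mean level of the 30 members was 7.02 in Car6-/- trachea 1, 8.96 in trachea 2, 11.18 in trachea 4, 10.98 in trachea 5, 10.27 in trachea 6 and 10.80 in trachea 7. In wild type it ran from 11.02 to 12.14. Tracheas 1 and 2 were the low samples, trachea 4 lay inside the wild-type range, and the other 3 lay below it but above tracheas 1 and 2. For 20 members the lowest of all 14 tracheas was Car6-/- trachea 1 and for the other 10 it was trachea 2, and for 23 the highest was wild-type trachea 4.

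**Figure D2:**
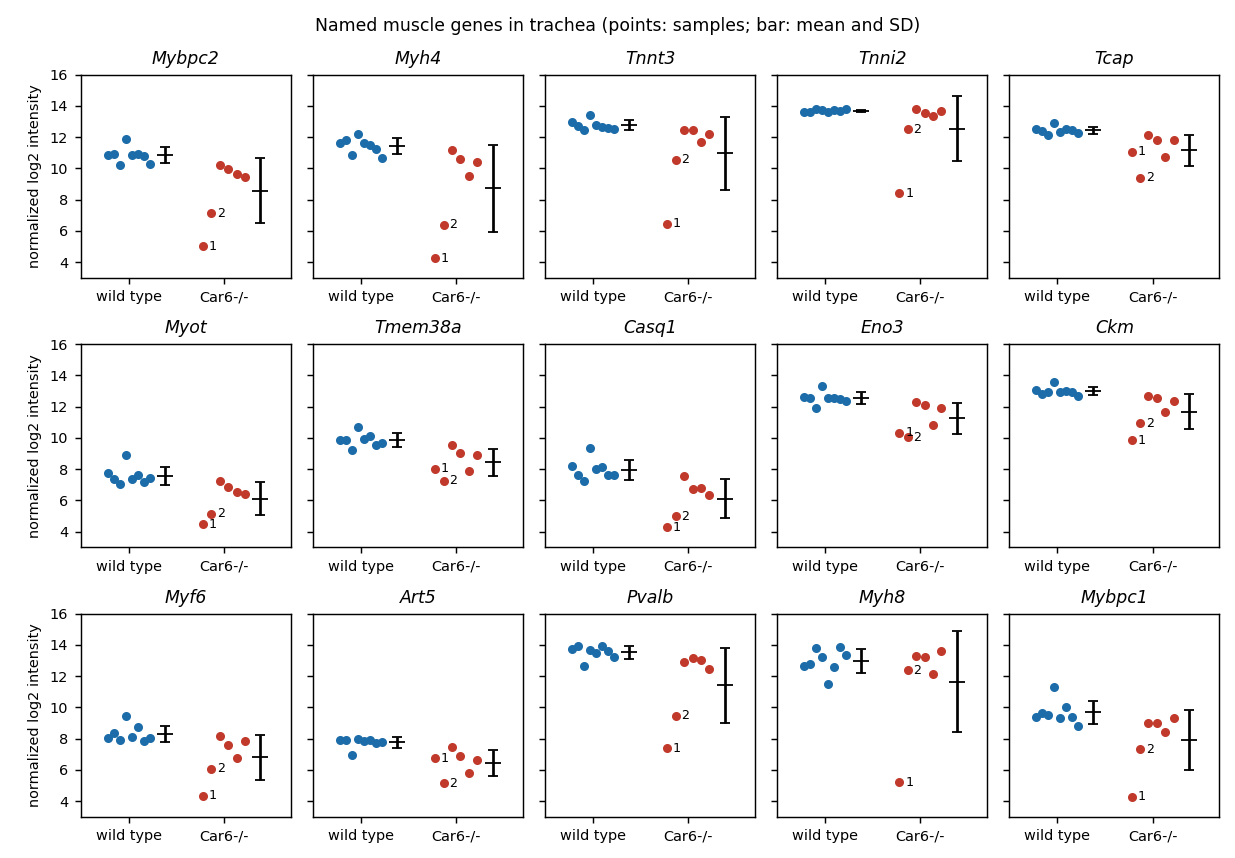
Normalized log2 intensity of 15 named muscle genes in each wild-type (blue, n = 8) and Car6-/- (red, n = 6) trachea, with the mean and SD as bars. The lowest point is Car6-/- trachea 1 or 2 (marked by number) for each gene, and it is trachea 2 for Tmem38a, Tcap, Eno3 and Art5, where trachea 1 lies nearer to the other Car6-/- samples.

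Among thick filament genes, Myh4, the heavy chain of the fastest fibres, ranged from 4.24 through a median of 9.96 to 11.17 in Car6-/- trachea. The wild-type levels of Myh4 were 10.68, 11.55 and 12.20 (lowest, median, highest). Car6-/- samples lay below all wild-type samples in 5 of 6 cases, and the highest one, trachea 4, lay within their range. The difference was -2.71 ± 0.90 (SE), 6.56-fold, the largest of the 30 (limma adjusted p = 0.173), and -1.01 ± 0.32 without Car6-/- trachea 1 and 2 (adjusted p = 0.679).

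Mybpc2, the fast myosin binding protein C, stood at 5.02, 9.57 and 10.20 (lowest, median, highest) in Car6-/- and at 10.21, 10.84 and 11.86 in wild-type trachea. On the normalized scale the groups did not overlap, by a narrow margin (10.197 in Car6-/- trachea 4, 10.205 in wild-type trachea 3). Before normalization they did overlap, with signals of 1193.2 and 1142.9 in these 2 samples. By the brightest probe, Mybpc2 and Actn3, the fast-fibre alpha-actinin, were the 2 members with every Car6-/- sample below every wild-type sample. Of the 9736 genes, 8 showed this (0.0822%). The dimmest Actn3 probe overlapped, with Car6-/- trachea 4 at 7.677 and wild-type trachea 3 at 7.639. The remaining Actn3 probe did not, with 9.913 and 9.966 in these samples. The difference of Mybpc2 was -2.26 ± 0.68 (limma adjusted p = 0.151), and -1.01 ± 0.26 without tracheas 1 and 2. Mybpc1, the slow-type relative of Mybpc2 that fast muscle also uses, stood at 4.29, 8.71 and 9.32 in Car6-/- and at 8.82, 9.46 and 11.31 in wild-type trachea. There 3 of 6 Car6-/- samples lay below all wild-type samples and the difference was -1.78 ± 0.66 (limma adjusted p = 0.203), and -0.73 ± 0.36 without tracheas 1 and 2. The other Mybpc1 probes gave -1.835 and, for a dim one detected in 4 of 8 wild-type and 0 of 6 Car6-/- tracheas, -0.62.

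Myh8, the heavy chain of newborn and of some craniofacial muscle, behaved apart from Myh4. Its Car6-/- levels were 5.20, 12.81 and 13.62 (lowest, median, highest) and its wild-type levels 11.47, 13.00 and 13.83. Only Car6-/- trachea 1 lay below the wild-type samples, and trachea 2 stood at 12.37. The difference was -1.31 ± 1.06 (limma adjusted p = 0.530), and 0.12 ± 0.41 without tracheas 1 and 2 (adjusted p = 0.966), so that its sign rests on those samples. Both probes of Myh8 gave similar estimates, -1.31 and -1.33.

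Among the other thick filament genes, Mylpf had a difference of -2.20, and of -0.68 without tracheas 1 and 2. Myh1, a further fast heavy chain, had a difference of -1.94, and of -0.64 without them. For Myl1 the 2 probes disagreed. The brighter one, used here, gave 13.42 in Car6-/- and 13.55 in wild-type trachea, a difference of -0.13 (0.17 without tracheas 1 and 2), and was detected in all lungs. The dimmer one gave 7.86 and 10.26, a difference of -2.40, and was detected in 1 lung of each genotype. Which transcript each probe reads is not analysed here.

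Thin filament genes had a median difference of -1.43, and of -0.06 without tracheas 1 and 2. Tnnt3, fast troponin T, stood at 6.44, 11.96 and 12.47 (lowest, median, highest) in Car6-/- and at 12.47, 12.68 and 13.42 in wild-type trachea. Of the 6 Car6-/- samples, 5 lay below every wild-type sample and trachea 5 reached the lowest of them. The difference was -1.80 ± 0.75 (limma adjusted p = 0.242) and -0.56 ± 0.19 without tracheas 1 and 2.

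Tnni2, fast troponin I, ranged from 8.40 through 13.42 to 13.78 in Car6-/- trachea against 13.59, 13.70 and 13.76 in wild type. Apart from trachea 1 and, at 12.50, trachea 2, the Car6-/- samples lay between 13.33 and 13.78. The difference was -1.16 ± 0.66 (limma adjusted p = 0.384) and -0.11 ± 0.10 without those 2 samples. Acta1, skeletal muscle actin, had a level of 13.26 in Car6-/- trachea 2, beside a wild-type mean of 13.31, and of 6.68 in trachea 1. Its difference without both was 0.13. The highest member signal on the linear scale, 19517.5, lay within the range of the arrays' own maxima, 11794.6 to 21264.4, so that the brightest genes were read near the top of the scale.

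Z disc and titin genes had a median difference of -1.38, and of -0.81 without tracheas 1 and 2. Tcap, which caps titin at the Z disc, stood at 9.39, 11.43 and 12.13 (lowest, median, highest) in Car6-/- and at 12.11, 12.42 and 12.89 in wild-type trachea. Trachea 2 was the lowest sample and trachea 1, at 11.06, lay between tracheas 6 and 7. In all, 5 of 6 Car6-/- samples lay below every wild-type sample, with a difference of -1.29 ± 0.34 (limma adjusted p = 0.151), and -0.82 ± 0.23 without tracheas 1 and 2.

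Myot stood at 4.46, 6.47 and 7.23 in Car6-/- and at 7.06, 7.40 and 8.91 in wild-type trachea. Again 5 of 6 Car6-/- samples lay below all wild-type samples, and trachea 4 overlapped them. Its difference was -1.48 ± 0.40 (limma adjusted p = 0.151), and -0.83 ± 0.29 without tracheas 1 and 2. The second Myot probe, detected in 0 samples, gave -0.035. Actn2, the alpha-actinin of all striated muscle including the heart, had a difference of -0.86 (-0.68 without tracheas 1 and 2), with Car6-/- trachea 1 at 11.08 against a wild-type mean of 11.00.

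Calcium handling genes had a median difference of -1.87, and of -0.91 without tracheas 1 and 2. Casq1 stood at 4.29, 6.51 and 7.57 (lowest, median, highest) in Car6-/- and at 7.24, 7.82 and 9.37 in wild-type trachea. Trachea 1 did not detect it, trachea 2 stood at 4.97, and 5 of 6 Car6-/- samples lay below all wild-type samples. The difference was -1.86 ± 0.46 (limma adjusted p = 0.151) and -1.12 ± 0.34 without the 2 lowest samples.

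Tmem38a, the TRIC-A cation channel of the sarcoplasmic reticulum, stood at 7.25, 8.45 and 9.57 in Car6-/- and at 9.23, 9.86 and 10.69 in wild-type trachea. Here trachea 2 was lowest, followed by trachea 6 (7.87) and trachea 1 (8.03), and trachea 4 overlapped the wild-type range. Its difference was -1.42 ± 0.32 (limma adjusted p = 0.151), and -1.02 ± 0.30 without tracheas 1 and 2.

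Pvalb, the calcium buffer of fast fibres, stood at 7.38, 12.69 and 13.16 in Car6-/- and at 12.62, 13.64 and 13.91 in wild-type trachea. Tracheas 1 (7.38) and 2 (9.47) were far below the others, trachea 7 lay just under the wild-type range and 3 Car6-/- samples lay inside it. The difference was -2.12 ± 0.78 (limma adjusted p = 0.201) and -0.62 ± 0.23 without tracheas 1 and 2. The release channel gene Ryr1 and the calcium pump gene Atp2a1 had differences of -2.18 and -1.87, and of -0.91 and -0.31 without those samples.

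The 6 energy genes had differences of -1.53 to -1.09, and of -0.82 to -0.67 without tracheas 1 and 2. Ckm, muscle creatine kinase, stood at 9.84, 12.02 and 12.68 (lowest, median, highest) in Car6-/- and at 12.68, 12.93 and 13.59 in wild-type trachea. In all, 5 of 6 Car6-/- samples lay below every wild-type sample, and the difference was -1.32 ± 0.37 (limma adjusted p = 0.151), and -0.68 ± 0.20 without tracheas 1 and 2. Eno3, muscle enolase, stood at 10.04, 11.38 and 12.31 in Car6-/- and at 11.91, 12.52 and 13.29 in wild-type trachea. For Eno3 the 3 Car6-/- samples below all wild-type samples were tracheas 1, 2 and 6, and the difference was -1.27 ± 0.35 (limma adjusted p = 0.151), and -0.73 ± 0.27 without tracheas 1 and 2. Pygm (glycogen phosphorylase), Ampd1 (AMP deaminase), Pfkm (phosphofructokinase) and Pgam2 (phosphoglycerate mutase) had differences of -1.53, -1.53, -1.10 and -1.09, and without those samples of -0.82, -0.75, -0.67 and -0.69.

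Myf6 was the myogenic factor that could be tested. It stood at 4.35, 7.19 and 8.18 in Car6-/- and at 7.84, 8.07 and 9.43 in wild-type trachea. Trachea 1 did not detect it, 5 of 6 Car6-/- samples lay below the wild-type range, and trachea 4 lay within it. The difference was -1.51 ± 0.50 (limma adjusted p = 0.171), and -0.71 ± 0.31 without tracheas 1 and 2. Art5 stood at 5.15, 6.68 and 7.47 in Car6-/- and at 6.95, 7.89 and 7.97 in wild-type trachea. The lowest Car6-/- sample was trachea 2, trachea 1 (6.74) was in the middle of the group, and the difference was -1.31 ± 0.30 (limma adjusted p = 0.151), with 5 of 6 below all wild-type samples. Without tracheas 1 and 2 it was -1.06 ± 0.27.

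Car6-/- trachea 1 and 2 were each low in nearly all members and differed in how low each member was. Trachea 1 lay below every wild-type trachea for 29 of the 30, trachea 2 for 28, and both for 27. Counts this close to 30 have to overlap. The share of all genes with such values is not given here, so the counts are a description. In trachea 1, 11 of the 30 were not detected, Myh1, Myh4, Mybpc1, Mybpc2, Tnnc2, Actn3, Myoz1, Myot, Casq1, Ryr1 and Myf6. Its differences from the wild-type mean ran from -8.94 for Tnnc2, fast troponin C, to 0.08 for Actn2. In trachea 2 all 30 were detected, and the differences ran from -5.05 for Myh4 to -0.05 for Acta1. The 10 members higher in trachea 1 than in trachea 2 were Actn2, Ttn, Tcap, Pgam2, Pfkm, Eno3, Pygm, Tmem38a, Art5 and Myl1. Several of these proteins, such as titin, telethonin (Tcap) and Actn2, are also made in heart muscle. Ttn, for instance, stood at 10.79 in trachea 1 and 8.78 in trachea 2, beside a wild-type mean of 11.61.

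Heart markers moved with trachea 1. Of 11 cardiac genes with a probe, 6 were detected in 0 wild-type tracheas (Nppa, Nppb, Tnni3, Mybpc3, Pln and Ryr2), and Ryr2 also in 0 Car6-/- tracheas. The mean of the 9 cardiac genes other than Nppb and Ryr2 was 6.46 to 6.86 in wild-type trachea. It was 11.95 in Car6-/- trachea 1, 9.55 in trachea 7, 7.40 in trachea 2 and 6.55 to 6.87 in the other 3. Atrial myosin light chain Myl7 stood at 13.10 in trachea 1 and 10.42 in trachea 7, and alpha heavy chain Myh6 at 12.84 and 9.48, while the wild-type tracheas ranged from 4.33 to 5.87 and from 4.54 to 5.42. Their part in the levels of the members was not tested.

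**Figure D3:**
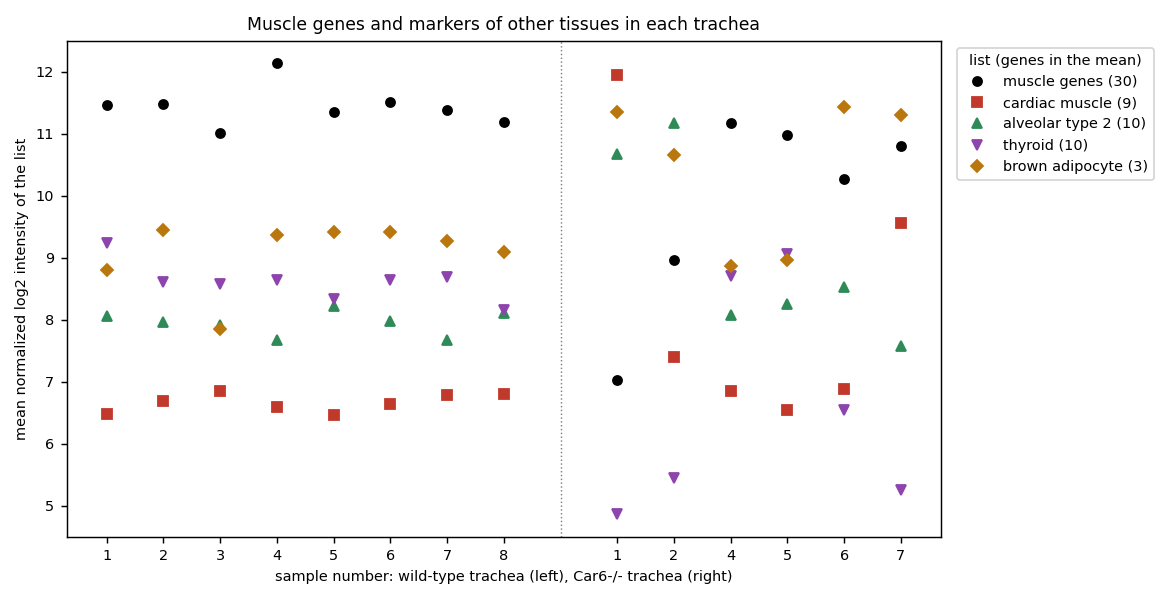
Mean normalized log2 intensity of the 30 tested muscle genes and of 4 marker lists in each wild-type (left) and Car6-/- (right) trachea. The muscle mean is lowest in Car6-/- trachea 1 (7.02) and 2 (8.96), where the alveolar type 2 mean is 10.67 and 11.18, and the cardiac mean is highest in trachea 1 (11.95).

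Markers of other neighbouring tissues also differed between the Car6-/- tracheas. The mean of 10 thyroid genes, parathyroid hormone included, was 8.15 to 9.23 in wild type and 8.70 and 9.05 in Car6-/- tracheas 4 and 5, against 4.87, 5.44, 6.54 and 5.25 in tracheas 1, 2, 6 and 7. Thyroglobulin (Tg) stood at 5.34 and 5.04 in tracheas 1 and 2 and at 13.56 to 13.71 in wild type. The mean of 3 brown adipocyte genes was 11.34, 10.66, 11.43 and 11.30 in tracheas 1, 2, 6 and 7, against 8.87 and 8.97 in tracheas 4 and 5 and 7.85 to 9.45 in wild type. The 2 Car6-/- tracheas with wild-type-like thyroid and brown fat means, 4 and 5, were also the 2 with the highest muscle means of that group. For 5 B cell genes, wild-type means ran from 5.22 to 5.68, Car6-/- tracheas 1 and 2 stood at 8.03 and 10.14, and the rest of that group lay between 5.60 and 6.96. The mean of 7 endothelial genes was 9.15 and 9.00 in these 2 samples, against 7.50 to 8.02 in the other Car6-/- tracheas and 7.43 to 7.92 in wild type. Of the genes tested in trachea, 4 of 4 B cell genes (median 1.64) and 7 of 7 endothelial genes (median 0.47) had higher means in Car6-/-. Smooth muscle genes were higher in Car6-/- for 8 of 9 (median 0.84) and white adipocyte genes for 10 of 10 (median 0.97), while cartilage genes were lower for 8 of 8 (median -0.78) and stratified epithelium genes for 10 of 10 (median -1.29). Without tracheas 1 and 2 these medians were 0.33 for the 2 B cell genes still tested, 0.02 for endothelium, 0.54 for smooth muscle, 0.86 for white adipocytes, -0.71 for cartilage and -0.54 for stratified epithelium. None of these genes was called, and their part in the muscle differences was not tested.

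**Figure D4:**
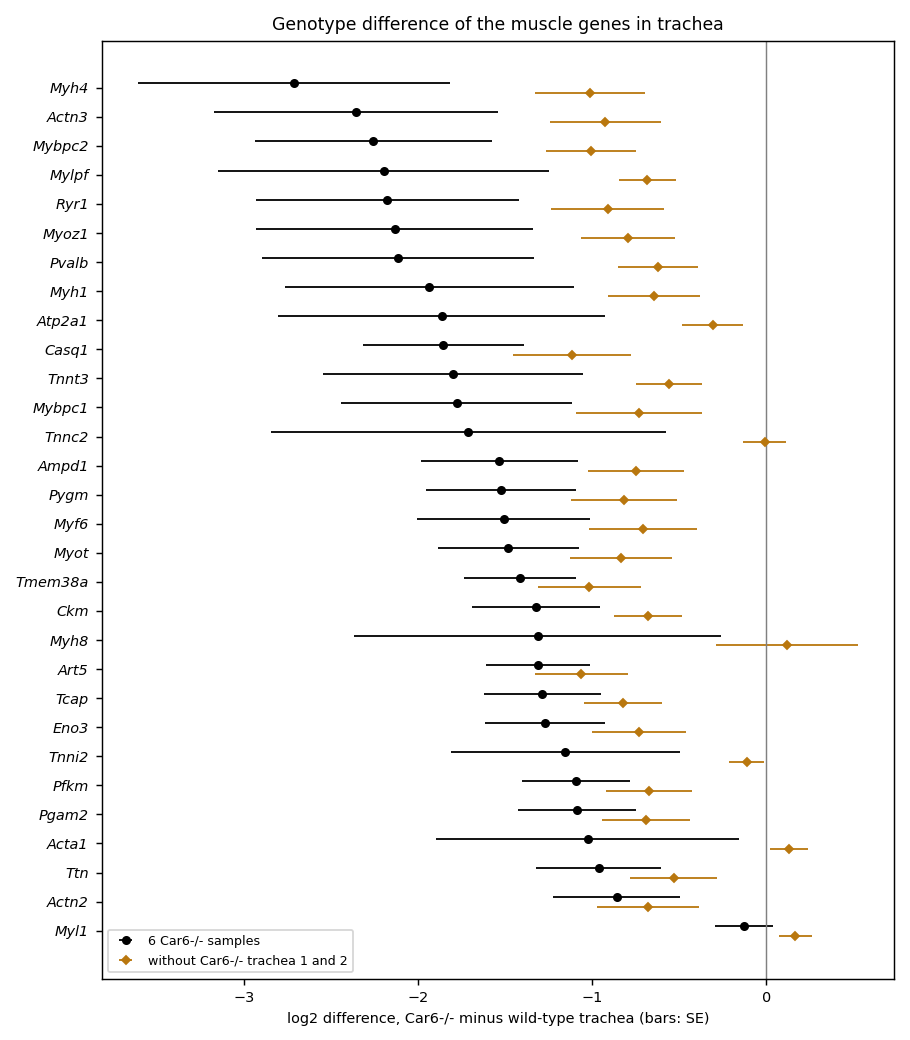
Log2 difference of Car6-/- minus wild-type trachea with its SE for the 30 tested muscle genes, from all 6 Car6-/- samples (black) and without Car6-/- trachea 1 and 2 (ochre). All 30 estimates are below 0 with all samples, and those of Myh8, Myl1 and Acta1 lie above 0 without the 2 samples.

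Without Car6-/- trachea 1 and 2 the median difference of the 30 members was -0.70, and limma called 0 of them (0% of 9539 genes), with the lowest adjusted p at 0.679. Casq1 (-1.12), Art5 (-1.06), Tmem38a (-1.02), Myh4 (-1.01) and Mybpc2 (-1.01) kept estimates past -1, and Tnnc2 came to -0.01. Among the samples left out singly, trachea 4 changed the count. Without Car6-/- trachea 4, 14 of the 30 members were called lower, among 693 of 9650 genes called (7.18%, and 3.35% called lower), with a median of -1.75. The calls included Mybpc2, Myh4, Tcap, Myot, Tmem38a, Casq1, Eno3, Ckm, Myf6 and Art5 (adjusted p from 0.0164 to 0.046).

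Other muscle genes were taken from 8 lists of related function, 128 entries of which 110 have a probe. In Car6-/- against wild-type trachea, 63 of the 84 tested were lower and 0 were called, with a median of -0.51 beside 0.04 over all genes. Without tracheas 1 and 2, 67 of 83 were lower with a median of -0.41, and 0 were called. Sarcomere assembly and turnover genes were lower for 10 of 10 (median -0.79), with the small heat shock protein genes Hspb7 at -2.38 ± 0.64 and Hspb6 at -0.81 ± 0.21. Genes that couple excitation to calcium release were lower for 8 of 12, with Sypl2 at -1.91 ± 0.56 and Stac3, an adaptor of the calcium channel, at -1.47 ± 0.37. Neuromuscular junction genes were lower for 7 of 7, with Rapsn, which clusters acetylcholine receptors, at -0.79 ± 0.20 and the receptor subunit gene Chrnb1 at -0.64 ± 0.18.

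Without tracheas 1 and 2 these estimates were -2.36 for Hspb7, -0.52 for Hspb6, -0.93 for Sypl2, -0.94 for Stac3, -0.67 for Rapsn and -0.40 for Chrnb1. The list medians were then -0.56 for assembly, -0.56 for coupling and -0.40 for the junction.

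Further sarcomere genes were lower for 13 of 15 (median -0.52), with the Z disc gene Ldb3 at -1.24 ± 0.32 and Nrap at -1.28 ± 0.37. Membrane complex genes were lower for 5 of 8, led by Art1 (-1.37 ± 0.39), an ADP-ribosyltransferase like Art5, and Sgca (-1.18 ± 0.37), a sarcoglycan. Other energy genes were lower for 14 of 21 (median -0.24), with Phkg1, a phosphorylase kinase subunit, at -1.69 ± 0.45 and the purine cycle gene Adssl1 at -1.08 ± 0.32. Slow fibre genes were lower for 5 of 9 (median -0.21), with Myl2 at -1.83 ± 0.69 and Tnnt1 at -1.45 ± 0.67. Of 10 regulators and stem cell genes with a probe, Mef2a (0.24) and Mef2c (-0.60) could be tested, and Pax7, Pax3 and Myf5 were detected in 0 of 28 samples. The limma adjusted p of the genes named from the lists was 0.151 or more. Without tracheas 1 and 2 the list medians were -0.43 for further sarcomere genes, -0.35 for the membrane complex, -0.13 for other energy genes and -0.14 for slow fibre genes. The single estimates were then -0.88 for Ldb3, -0.79 for Nrap, -1.17 for Art1, -0.90 for Sgca, -1.25 for Phkg1, -0.56 for Adssl1, -1.71 for Myl2 and -1.18 for Tnnt1, and Mef2a came to -0.04 and Mef2c to -0.71.

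Over the 14 tracheas, the genes outside the list that followed the mean of the 30 members most closely were Sypl2 (Pearson r = 0.988), 2310002L09Rik (0.983), Shisa2 (0.976), Smtnl1 (0.972) and Adssl1 (0.969). Within the 8 wild-type tracheas their r was 0.974, 0.969, 0.924, 0.634 and 0.974. Those that ran most against it were Gja5 (r = -0.960), Cldn15, Rarres2, C2 (each -0.942) and Pdlim4 (-0.938). Their r within wild type was -0.41, 0.19, -0.72, -0.685 and -0.121. These values describe samples that share a tissue and an array platform, and over the 14 they span Car6-/- trachea 1 and 2, the extreme samples. Sypl2 stood at 5.06 and 6.65 there and at 9.72 on average in wild type, and the gap junction gene Gja5 at 7.59 and 6.51 against 4.77.

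In lung, Car6-/- and wild-type samples were compared to ask the same of the distal airways. Of the 33 members with a probe, 17 were tested, 11 with a higher and 6 with a lower mean in Car6-/-. None was called by limma, where 2 of 9417 genes were (0.0212%), and 0 of the 17 and 884 of all genes had an unadjusted p under 0.05. Their median difference was 0.02, and the estimates ran from -0.62 for Tcap to 0.31 for Pvalb.

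Single lungs carried most of the signal. Car6-/- lung 5 was the highest of the 14 lungs for 24 of the 33 members and detected 26 of them, where the other lungs detected 13 to 24. Its Acta1 level was 12.16, against 4.32 to 9.78 in the other 13 lungs. Atp2a1 stood at 11.86 there, Pvalb at 11.48, Tnnc2 at 11.23 and Mylpf at 10.05. Wild-type lung 6 came next for these genes, with Acta1 at 9.78, Atp2a1 at 9.47 and Pvalb at 8.89. The group medians of Pvalb were 4.52 in Car6-/- and 5.32 in wild-type lung.

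Among the striated muscle genes shared with the heart, Tcap was highest in wild-type lung 7, at 9.91, and Actn2 also, at 8.70. Ttn was highest in Car6-/- lung 5, at 9.02, followed by wild-type lung 7 at 8.55. That lung had the highest cardiac marker mean, 10.15, with Nppa at 12.21 and Myl7 at 11.87, while Acta1 stood at 5.99 there. The lowest cardiac means were those of wild-type lungs 2 and 3, 6.53 and 6.45, which had the lowest Actn2 levels, 5.56 and 5.92. In Car6-/- lung 5 the cardiac mean was 8.09, inside the range of the other Car6-/- lungs (7.46 to 8.89). Cardiac markers were lower in Car6-/- lung for 9 of 9 genes tested (median -0.16), with 0 called, and their part in the member levels was not tested. Without Car6-/- lung 5 the median difference of the members tested was -0.57, without wild-type lung 6 it was 0.21, and without both it was -0.31. The detection filter was applied anew to the samples left, and without both lungs Acta1 and Pvalb no longer passed it.

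**Figure D5:**
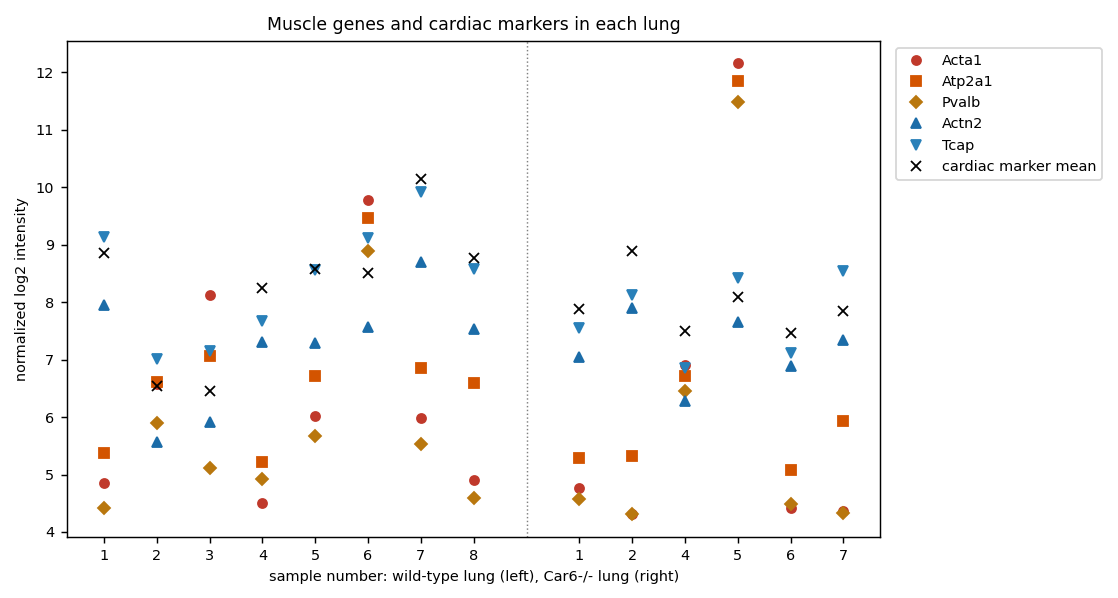
Normalized log2 intensity of 5 muscle genes and the mean of 9 cardiac markers (crosses) in each wild-type (left) and Car6-/- (right) lung. Acta1, Atp2a1 and Pvalb peak in Car6-/- lung 5 and wild-type lung 6, and Actn2, Tcap and the cardiac mean in wild-type lung 7.

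The genotype difference was compared between trachea and lung in 1 model of all 4 groups. For all 30 members tested the estimate was below 0, that is, lower in trachea relative to lung, with a median of -1.68 beside 0.04 over all genes. None was called by limma, nor was any of the 10532 genes (0%), and 16 members and 1446 genes had an unadjusted p under 0.05. The lowest adjusted p was 0.177, shared by Casq1 (-1.94 ± 0.48), Tmem38a (-1.53 ± 0.40), Myot (-1.68 ± 0.43) and Art5 (-1.22 ± 0.33). Without the 4 samples that stood apart these were -1.16, -1.05, -1.06 and -1.03 (limma adjusted p = 0.718 for each). This contrast contains the same tracheas as the comparison above and is no separate evidence. Without those 4 samples its median was -0.58 with 0 called. Estimates were then above 0 for 2 of 7 thick filament, 3 of 4 thin filament and 1 of 5 calcium handling genes. The highest was 1.03, and the thin filament median was 0.27. The contrast had 11 members called lower without Car6-/- trachea 4 (6.43% of all genes called) and 5 without Car6-/- trachea 5 (2.08%).

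Car6-/- trachea remained above Car6-/- lung in these genes. Limma called 28 of 28 members tested as higher in trachea, with a median of 3.81, where 20.4% of 9500 genes were called higher. As in wild type, part of the members passed the filter through trachea alone and had to differ, so the counts given here are a description. In wild type the corresponding median was 5.42 over 30 genes, and the 2 contrasts share no sample. For 9 of the 28 every Car6-/- trachea lay above every Car6-/- lung, which held for 12.2% of all genes. Myh8 was detected in 6 of 6 Car6-/- tracheas and 0 of 6 lungs, with a mean at least 100-fold higher in trachea. Art5 was detected likewise, with a mean at least 2.72-fold higher. Both passed the filter through trachea alone, so that no p is given. Car6-/- trachea 1 had Myh8 at 5.20, close to the lung bound of 5.00. The second Myh8 probe was detected in 5 of 6 Car6-/- tracheas. Without Car6-/- trachea 1 and 2 and lung 5, 15 of 15 members tested were called (47.1% of all genes called), the smaller number tested being due to fewer samples for the filter.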

How the data were processed

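RNA was measured on Illumina bead arrays, 32 arrays for 28 samples. 150 ng of total RNA per sample was biotin-labelled, per the labels' protocols. The authors deposited a table of intensity per probe on the linear scale, not normalized, with a detection p-value per signal, per the file headers. Their second deposited table holds log2 values. Recomputation showed these to be the log2 intensity after quantile normalization per tissue (0 of 822304 values off by more than 0.005), with column medians of 6.68 to 6.71, no centring and no direction to settle. For scanner, software and chip: not given in the sources used here.

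Here the intensity table was background-corrected with limma's nec (detection p, offset 16), quantile-normalized over all arrays and put on the log2 scale. The 2 arrays of 4 samples were averaged (median difference between them 0.09 to 0.18 over 30 members). Tools were R 4.3.3 and limma 3.58.1. Probes entered a test with 6 or more of its samples at a detection p under 0.01. The brightest probe stood for a gene. Linear models (lmFit, eBayes) with Benjamini-Hochberg adjustment over all genes called adjusted p under 0.05, and every adjusted p comes from limma. Probe symbols come from the platform annotation, with 23978 probes of 1 symbol, 1719 of none and 0 of several. "At least" folds use, per sample, the higher of the lowest signal of a detected probe and the probe's own.

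Members and lists were chosen with earlier results of these data known. Named genes are the 2 members per role with the smallest p in trachea plus Pvalb, Myh8, Mybpc1, Myod1, Myog, Myf6 and Art5, up to 2 genes per related muscle list, and the 5 genes in each direction nearest to the member mean. Other members and marker genes given with values were chosen after their values were seen. The cardiac and slow fibre, sarcomere or energy lists share some genes. The number of arrays limits the precision. The procedure was tested on simulated data. Alternatives were median scaling, quantile normalization per tissue, no background correction, the authors' table, other filters, the mean of probes, first arrays only, sample weights, a replicate block and leaving out samples. Leaving out the samples that stood apart together was chosen after seeing the data.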

Additional observations from a re-analysis of the deposited data

Results flagged for a closer look

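For the 15 named members, 52 groups were examined for a sample whose gap to the nearest other sample was a large share of the group's range, and 19 values, from 5 samples, met the limit. The limit is set so that about 1 in 20 groups of independent normal values would pass it. The members vary together, so flags of 1 sample repeat each other and were not set against chance. In Car6-/- lung, sample 5 stood alone high for Pvalb (11.48), Tnni2 (11.79), Ckm (9.88), Tnnt3 (9.65), Myh4 (8.36), Mybpc2 (7.89), Mybpc1 (5.54) and Myf6 (5.15). In wild-type lung, sample 6 stood alone high for Pvalb (8.89), Tnnt3 (7.31) and Myh4 (5.43). In Car6-/- trachea, sample 1 stood alone low for Tnni2 (8.40), Tnnt3 (6.44) and Myh8 (5.20). In wild-type trachea, sample 4 stood alone high for Ckm (13.59), Mybpc2 (11.86), Casq1 (9.37) and Myot (8.91), and sample 3 stood alone low for Art5 (6.95). All are normalized log2 intensities.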

How the results depend on the processing

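The 15 named members were recomputed under 25 settings each in Car6-/- against wild-type trachea. Of these 375 values, 364 kept their direction and their side of the threshold, 10 passed the threshold, each without Car6-/- trachea 4, and 1 changed sign, Myh8 at 0.12 without Car6-/- trachea 1 and 2. Leaving out single samples gave 0 to 14 called members in trachea (median difference -1.75 to -1.07), 0 in lung (median -0.57 to 0.21), 0 to 11 for the genotype difference between tissues (median -1.90 to -1.26), 30 for wild-type trachea against lung (median 5.25 to 5.62) and 20 to 28 for Car6-/- trachea against lung (median 3.56 to 4.38). With sample weights, 2 members were called for the difference between tissues (0.693% of genes), and its median was -0.58 without the 4 samples that stood apart. The wild-type tissue difference had a median of 4.30 without background correction and 4.28 in the authors' table. In Car6-/- 15 members, all that were tested, were called without trachea 1 and 2 and lung 5. Median scaling put the median of all genes at -0.16 between wild-type trachea and lung and at -0.20 between the Car6-/- tissues. With the replicate number as a block, 0 members were called in trachea (median -1.63) and 1 gene in all. Same-numbered Car6-/- lung and trachea had correlations of -0.11 to 0.09, and wild-type ones of -0.15 to 0.09. For the tracheas of the 2 genotypes they were -0.18 to 0.54, and for their lungs -0.28 to -0.04. Correlations between different tissues cannot show whether a lung and a trachea of 1 number come from 1 animal. The causes of these shifts were not tested. Signals near background in lung and near the top of the scale in trachea limit the size of differences that can be read.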
